A study of Mus musculus with 32 samples.

Results

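Il5ra, Dynap and Aqp8 are 3 mouse genes of 19938 measured on 32 arrays of brain tumour cells. They were chosen by their measured values, which were high on all arrays of cells with added HRAS and MYC together or with HRAS added to MYC tumour cells, and low on arrays of cells with HRAS alone or MYC alone. Their levels in those groups are therefore given as a description, without a test, and support nothing. Group differences in these 3 genes were tested only between the groups that had no part in that choice. Each gene has 1 probe set, on chromosome 6 for Il5ra, 18 for Dynap and 7 for Aqp8.

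The arrays come from a mouse model in which oncogenes were placed in neurosphere cells that lack functional p53 (strain label B6;129-Trp53tm1Brd) and the cells were transplanted into the brain. Neurospheres are floating clusters in which neural stem and progenitor cells grow in culture. Cells that carried the transgenes were sorted from each intracranial tumour by flow cytometry, grown again as neurospheres, and their total RNA was put on an Affymetrix Mouse Gene 1.0 ST array. The HRAS+MYC group (7 arrays) came from tumours described as like atypical teratoid/rhabdoid tumour (AT/RT), with both oncogenes present from the start. In the group MYC then HRAS (2 arrays), HRAS was added to cells of a primitive neuroectodermal tumour (PNET) made by MYC, and a secondary tumour was grown. In the group HRAS then MYC (2 arrays), the order was the other way round, with MYC added to glioma cells. HRAS+Bmi1 (2 arrays) gave gliomas, and MYC+Ezh2 (5 arrays) and MYC+Bmi1 (3 arrays) gave PNETs. Bmi1 and Ezh2 are Polycomb proteins, which keep genes silent. The single-oncogene groups were HRAS (5 arrays, glioma) and MYC (6 arrays, PNET). The loss of p53 and the culture as neurospheres are shared by all 8 groups, and no group without an added oncogene was analysed here. The vector, its promoter, the age and sex of the animals, and whether a culture was a clone or a pool are not stated in the labels. Nor do they say whether replicates of a group came from separate tumours, so p-values measure the spread between these arrays, which may be partly technical.

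All values are log2 expression values made by the robust multi-array average (RMA), which corrects background, gives all arrays the same distribution and summarises the probes of a set. A difference of 1 is a doubling. An array averages over all cells in a culture, so fewer cells that express a gene and less RNA per cell cannot be told apart. The number of arrays, 2 in 3 of the groups, limits the precision. The probe set named Myc reads the mouse gene, and the species of the added MYC is not given. It stood at 7.24 to 7.96 in HRAS+MYC arrays, 10.44 to 12.85 in HRAS arrays and 6.12 to 8.23 in MYC arrays, and serves here as no check of the added gene. Hras was not analysed here. Sox2, a factor of neural stem cells, lay between 9.62 and 11.92 on every array outside the MYC group, and at 4.85 to 11.58 within it. MYC replicates 4 and 5 were low in Sox2, and HRAS replicate 3 stood apart from the other HRAS arrays in neuronal genes such as Map2 (9.99, the highest of its group). Results that rest on these 3 arrays are given with and without them.

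Il5ra encodes the alpha chain of the receptor for interleukin 5. This chain binds the cytokine and signals together with the common beta chain, encoded by Csf2rb, through JAK kinases and STAT5. It is known from eosinophils and B-1 cells, where it carries signals for growth and survival, and not as a gene of neural cells. Aqp8 encodes an aquaporin, a membrane channel for water that also passes ammonia and hydrogen peroxide, and is known from the epithelia of gut, pancreas and liver. Dynap encodes a membrane protein named for its binding to dynactin, the complex that links the motor dynein to its cargo. In human cells it is reported to bind a dynactin subunit and to activate the kinase AKT.

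The promoters of Il5ra and Aqp8 are shown because both genes were high where HRAS and MYC were combined, and both oncoproteins act on transcription, RAS in part through AP-1 (dimers of FOS and JUN proteins) and MYC through E-boxes. The sequences are RefSeq's for build GRCm38.p6 and run 5′ to 3′ on the gene's strand, from 250 bases before the annotated start to 50 bases after it. That of Il5ra is chr6:106748988-106749287 on the minus strand and that of Aqp8 chr7:123462044-123462343 on the plus strand. Capitals mark matches to TGAGTCA (AP-1), CACGTG (E-box) and CATGTG (a second E-box form), searched on both strands.
Il5ra: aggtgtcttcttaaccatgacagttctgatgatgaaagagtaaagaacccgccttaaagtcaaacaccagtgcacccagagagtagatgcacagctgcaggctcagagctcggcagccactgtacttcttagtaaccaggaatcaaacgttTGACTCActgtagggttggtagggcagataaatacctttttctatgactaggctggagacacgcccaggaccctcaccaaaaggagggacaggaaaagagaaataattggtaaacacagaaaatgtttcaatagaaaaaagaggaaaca
Aqp8: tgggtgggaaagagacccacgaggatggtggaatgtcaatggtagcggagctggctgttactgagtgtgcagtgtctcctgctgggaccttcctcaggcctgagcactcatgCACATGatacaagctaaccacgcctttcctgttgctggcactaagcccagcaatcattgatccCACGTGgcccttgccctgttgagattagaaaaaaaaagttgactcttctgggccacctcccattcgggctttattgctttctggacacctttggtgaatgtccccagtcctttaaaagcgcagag
The Il5ra window holds 1 AP-1 match, on the reverse strand, with its first base at position -99 from the start, and neither E-box form. The Aqp8 window holds CACGTG at position -75 and CATGTG, on the reverse strand, at position -138, and no AP-1 match. The matches do not overlap. TGAGTCA occurs in 5.17% of 27025 RefSeq promoter windows of this length, CACGTG in 7.24% and CATGTG in 14.1%. These are matches of letters and say nothing about binding by the factors.

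Il5ra was high on all arrays of 2 groups and low on all arrays of the other 6. Its log2 values in HRAS+MYC arrays ran from 10.001 through a median of 10.41 to 10.82, and those in the 2 MYC then HRAS arrays were 10.70 and 10.93. In HRAS then MYC arrays it stood at 3.80 and 3.70, in HRAS+Bmi1 arrays at 3.68 and 3.59, in MYC+Ezh2 arrays at 3.83, 3.76, 3.63, 3.48 and 3.68, and in MYC+Bmi1 arrays at 3.79, 3.68 and 3.91. The HRAS arrays held 3.48, 3.72, 3.60, 3.75 and 3.65, and the MYC arrays ran from 3.36 through 3.57 to 3.80. No array lay between 3.91 and 10.001, so the groups on either side of that gap do not overlap. Both HRAS then MYC arrays lay above both HRAS+Bmi1 arrays, and all other pairs of the 6 low groups overlap. The mean was 10.47 ± 0.327 (SD, n = 7) in HRAS+MYC arrays against 3.64 ± 0.108 (n = 5) in HRAS arrays, a difference of 6.83 ± 0.119 (SE), or 114-fold, and against 3.59 ± 0.168 (n = 6) in MYC arrays, a difference of 6.88 ± 0.113, or 118-fold. MYC then HRAS arrays (10.82 ± 0.163, n = 2) exceeded MYC arrays by 7.23 ± 0.165. In the order of the means, MYC then HRAS and HRAS+MYC come first, followed by MYC+Bmi1, HRAS then MYC, MYC+Ezh2, HRAS, HRAS+Bmi1 and MYC, and the arrays of neighbouring groups overlap except at the gap below HRAS+MYC.

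Dynap had the same 2 high groups but varied more on both sides. Its values in HRAS+MYC arrays ran from 9.65 through 10.65 to 11.08, and the 2 MYC then HRAS arrays, at 9.02 and 11.20, lay below and above all 7 of them. It stood at 4.41 and 3.97 in HRAS then MYC arrays, at 4.60 and 3.79 in HRAS+Bmi1 arrays, at 4.08, 3.92, 4.04, 4.22 and 4.11 in MYC+Ezh2 arrays, and at 4.26, 4.38 and 3.98 in MYC+Bmi1 arrays. In HRAS arrays the values were 4.12, 4.98, 4.22, 5.14 and 6.17, and in MYC arrays they ran from 3.83 through 4.16 to 4.35. Among the low groups HRAS thus had the widest spread, and its replicate 5, at 6.17, held the highest value of the 23 low arrays. The mean was 10.50 ± 0.500 in HRAS+MYC arrays, 47.7-fold that in HRAS arrays (4.93 ± 0.826) and 84.3-fold that in MYC arrays (4.11 ± 0.226). MYC then HRAS arrays averaged 10.11 ± 1.55, 64.2-fold the MYC arrays, with an SD set by 2 arrays more than 2 units apart. Means below the high pair followed the order HRAS, MYC+Bmi1, HRAS+Bmi1, HRAS then MYC, MYC and MYC+Ezh2, within the spread of the arrays throughout.

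Aqp8 also split into 9 high and 23 low arrays, with the smallest differences of the 3 genes. HRAS+MYC arrays ran from 8.70 (replicate 7) through 9.96 to 10.88, and the MYC then HRAS arrays held 7.96 and 9.23. HRAS then MYC arrays held 5.28 and 4.88, HRAS+Bmi1 arrays 5.04 and 4.95, MYC+Ezh2 arrays 5.56, 5.14, 5.21, 4.99 and 5.06, and MYC+Bmi1 arrays 5.06, 5.27 and 5.13. The HRAS arrays held 5.21, 5.28, 4.87, 5.02 and 4.88, and the MYC arrays ran from 4.96 through 5.14 to 5.20. The low groups overlap, except that both HRAS+Bmi1 arrays lay below all 3 MYC+Bmi1 arrays, and 1 of the MYC then HRAS arrays lies below every HRAS+MYC array. The mean in HRAS+MYC arrays, 9.90 ± 0.721, was 28.9-fold that in HRAS arrays (5.05 ± 0.188) and 27.8-fold that in MYC arrays (5.11 ± 0.105). MYC then HRAS arrays averaged 8.59 ± 0.898, 11.2-fold the MYC arrays and 1.31 ± 0.330 (SE) below HRAS+MYC arrays on the log2 scale. The order of the other means, from MYC+Ezh2 through MYC+Bmi1, MYC, HRAS then MYC and HRAS to HRAS+Bmi1, lies within the spread between arrays.

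**Figure D1:**
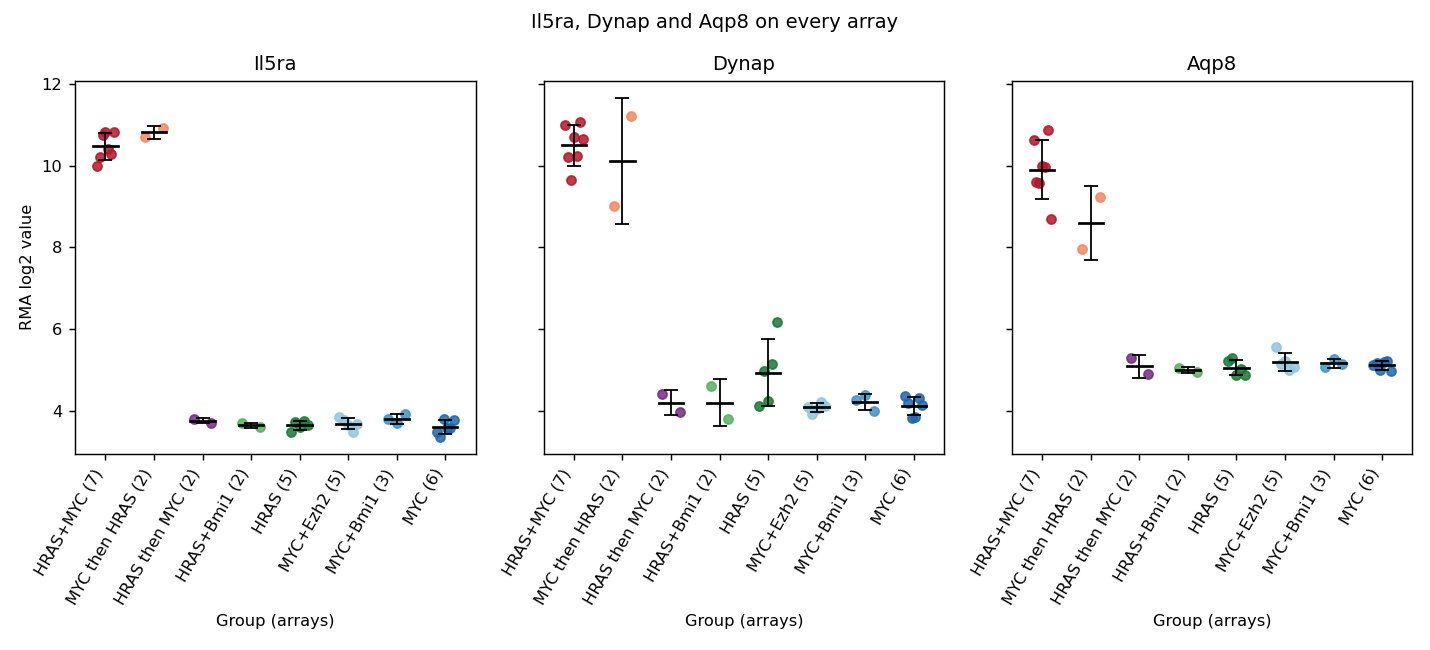
RMA log2 values (y axis) of Il5ra, Dynap and Aqp8 on each of the 32 arrays, by group (x axis, number of arrays in brackets); points are arrays, long bars group means and whiskers SD. The 9 arrays of HRAS+MYC and MYC then HRAS lie above all 23 others in each panel, and the HRAS then MYC arrays lie among the low groups.

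The order in which the oncogenes came was not used to choose the genes on the low side. Arrays of HRAS then MYC were low in all 3 genes although, per their labels, they carry the same pair of oncogenes as the high groups. Set against MYC then HRAS arrays, HRAS then MYC arrays were lower by 7.06 for Il5ra, 5.92 for Dynap and 3.51 for Aqp8 on the log2 scale, which is a description since the high side was chosen. Set against HRAS arrays, the cells they were made from, HRAS then MYC arrays differed by 0.11 ± 0.169 (SE) for Il5ra, -0.74 ± 0.443 for Dynap and 0.03 ± 0.344 for Aqp8. Without HRAS replicate 3 these differences were 0.10 for Il5ra, -0.91 for Dynap and -0.02 for Aqp8. On a scale with the mean of the single-oncogene groups at 0 and the mean of the 9 high arrays at 100, HRAS then MYC stood at 1.98% for Il5ra, -5.56% for Dynap and 0.0201% for Aqp8.

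In all, 4 comparisons between groups outside the choice were tested, with 1 limma model over all 32 arrays and Benjamini-Hochberg adjustment over 19938 genes, an adjusted p under 0.05 counting as passed. For HRAS then MYC against HRAS+Bmi1, where 4.69% of all genes rose and 5.33% fell, none of the 3 genes passed. The differences were 0.12 ± 0.202 for Il5ra (SE; 95% interval -0.30 to 0.53, limma adjusted p 0.825), -0.0046 ± 0.530 for Dynap (-1.09 to 1.08, adjusted p 0.997) and 0.09 ± 0.411 for Aqp8 (-0.76 to 0.93, adjusted p 0.946). For HRAS then MYC against MYC+Ezh2, where 6.83% of genes rose and 5.36% fell, the differences were 0.08 for Il5ra (-0.27 to 0.42), 0.11 for Dynap (-0.80 to 1.02) and -0.11 for Aqp8 (-0.82 to 0.59), with limma adjusted p between 0.856 and 0.924. In HRAS+Bmi1 against MYC+Bmi1, where 7.92% of genes rose and 5.83% fell, they were -0.16 for Il5ra (-0.54 to 0.22), -0.01 for Dynap (-1.01 to 0.98) and -0.16 for Aqp8 (-0.93 to 0.61), with limma adjusted p between 0.650 and 0.989. In MYC+Ezh2 against MYC+Bmi1 only 0.00502% of genes passed, the 1 gene being Ezh2 itself (1.79 ± 0.187, limma adjusted p 7.42e-06). There the 3 genes differed by -0.12 for Il5ra (-0.42 to 0.19), -0.13 for Dynap (-0.93 to 0.66) and 0.04 for Aqp8 (-0.58 to 0.65). With the replicate number as a block in these 2 groups, 2 genes passed, Ezh2 and the G protein subunit Gng12, named after its value was seen, and none of the 3 did. Of the 12 tests, 0 passed in limma and 0 had an unadjusted p under 0.05. The intervals allow differences of up to 1.09 in size for Dynap.

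The high groups are defined by combination, and the 3 genes were not alone in following it. A gap was computed for every gene, the lowest of the 9 HRAS+MYC and MYC then HRAS arrays minus the highest of the 11 HRAS and MYC arrays. It was above 0 in 171 genes, 0.858% of all, and this is the contrast that chose the 3 genes, so the ranks are a description. Il5ra had the largest gap of all genes, 6.20 on the log2 scale, with Dynap in place 5 (2.85) and Aqp8 in place 6 (2.68). Against all 23 other arrays, 106 genes (0.532%) had a gap above 0, and the 3 genes kept places 1, 5 and 6. The gap of Il5ra stayed between 6.20 and 6.41 when any 1 of the 20 arrays was left out. That of Dynap was 3.87 without HRAS replicate 5, and that of Aqp8 was 3.42 without MYC then HRAS replicate 1. With the 3 arrays that stood apart left out, 289 genes had a gap above 0, the gaps of the 3 genes were as before, and their places were 1, 6 and 7.

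Several keratin and adhesion genes of epithelia had gaps of like size, among others. Krt19 and Krt8, keratins of simple epithelia, had gaps of 3.58 and 3.04. Anxa8, an annexin that binds membranes with calcium, had 2.96, and Cdx2, the transcription factor of intestinal epithelium, 2.20. Cdh17, an intestinal cadherin, followed with 1.95, Perp, a component of desmosomes, with 1.76, Igfbp6, which binds insulin-like growth factors, with 1.76, Gdpd3 with 1.53, Ereg, a ligand of the EGF receptor, with 1.44, and Epcam, an epithelial adhesion protein, with 1.29. Krt19 averaged 11.92 ± 0.842 in HRAS+MYC arrays and 10.41 ± 0.751 in MYC then HRAS arrays, against 5.60 ± 0.397 in HRAS and 5.19 ± 0.116 in MYC arrays. Krt19 in HRAS then MYC arrays stood at 5.10 ± 0.0051 (SD, n = 2), low like the 3 genes. Cdx2 averaged 9.47 ± 0.771 in HRAS+MYC arrays, 9.99 ± 0.0176 in MYC then HRAS arrays and 5.78 ± 0.219 in HRAS then MYC arrays, against 5.58 ± 0.117 in HRAS and 5.69 ± 0.0852 in MYC arrays.

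Likeness was also measured by Pearson's r over all 32 arrays, which mainly records the split into 9 high and 23 low arrays and has no p here. For Il5ra the 5 most alike genes were Cdx2 (r = 0.985), Krt8 (0.982), Anxa8 (0.978), Krt19 (0.978) and Dynap (0.977). For Dynap they were Il5ra (0.977), Aqp8 (0.970), Krt8 (0.968), Krt19 (0.963) and the kinase gene Map3k6 (0.962). For Aqp8 they were Krt19 (0.973), Dynap (0.970), Myo7b, a myosin of the brush border (0.967), Il5ra (0.965) and Dsp, the desmosome protein desmoplakin (0.953). The 3 genes stand on one another's lists, except that Aqp8 is not among the first 5 of Il5ra. They were chosen for the same split, so this is a description. Over the 32 arrays Spearman's rho was 0.587 for Il5ra and Dynap, 0.632 for Il5ra and Aqp8 and 0.649 for Dynap and Aqp8.

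**Figure D2:**
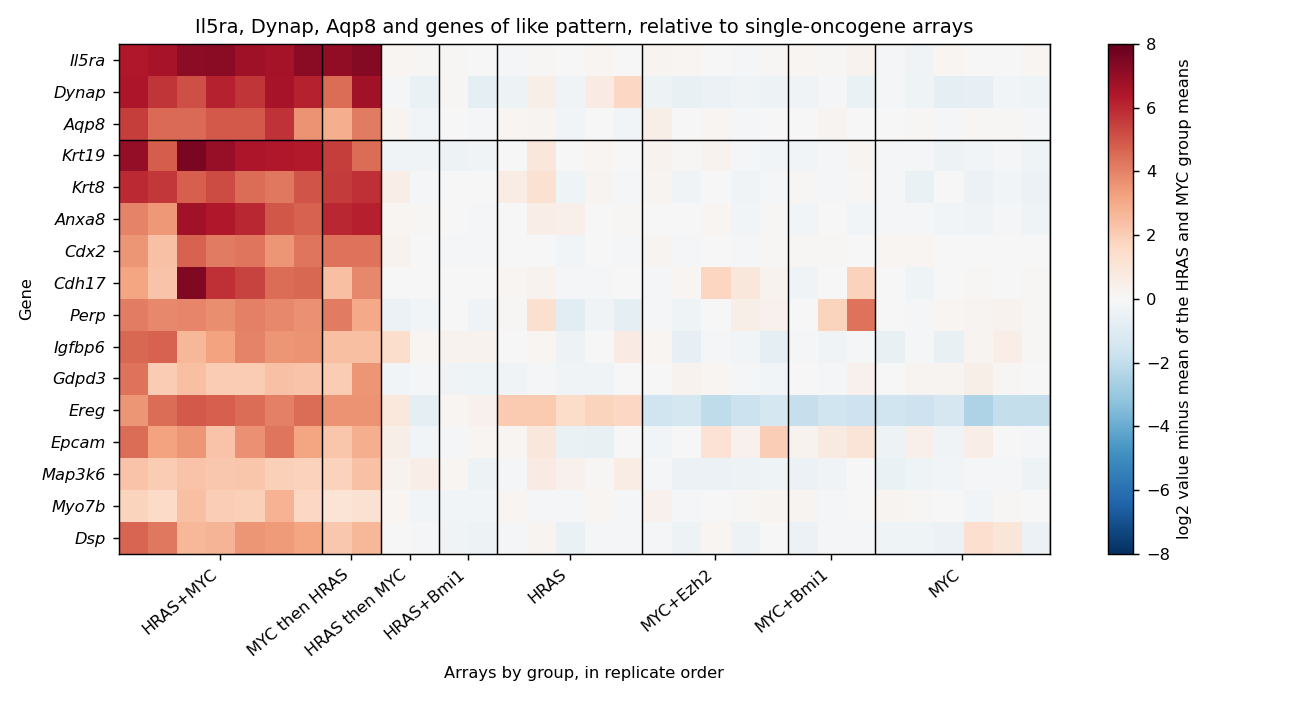
Log2 value of each gene (rows) on each array (columns, by group) minus the mean of the HRAS and MYC group means, in colour from -8 to 8. Il5ra, Dynap and Aqp8 and the genes of like pattern are high in the 9 columns on the left, HRAS+MYC and MYC then HRAS; Perp is also high on 1 of the 3 MYC+Bmi1 arrays and Ereg is above its mean in HRAS arrays.

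Some of these genes changed between groups where the 3 did not pass. Among 13 genes named by gap or likeness, Ereg rose in HRAS then MYC against MYC+Ezh2, by 1.70 ± 0.323 (SE, limma adjusted p 0.000540). In that comparison 6.83% of all genes rose and 5.36% fell. Map3k6 was 0.75 ± 0.192 higher there. It was named for its likeness over all 32 arrays, which include these 2 groups, so its difference is a description. Ereg was 1.94 ± 0.352 higher in HRAS+Bmi1 than in MYC+Bmi1 arrays (limma adjusted p 0.000279), and Perp was lower there (-2.14 ± 0.665, adjusted p 0.0298). Between those groups 7.92% of all genes rose and 5.83% fell. The MYC+Bmi1 arrays spread from 5.39 to 9.80 in Perp. Ereg differs from the 3 genes in the single-oncogene groups too, at 8.27 ± 0.268 in HRAS arrays and 4.63 ± 0.384 in MYC arrays.

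Across the 171 genes with a gap above 0, HRAS then MYC arrays were not uniformly low. Both arrays lay at or below the highest single-oncogene array in 126 genes, the 3 among them, and at or above the lowest of the 9 high arrays in 12. The median position was 7.84% of the way to the high groups, with quartiles of -2.33% and 35.5%, and 33 genes lay over 50% of the way. In HRAS+Bmi1 arrays 145 genes were at or below the highest single-oncogene array and the median position was -0.339%. For MYC+Ezh2 the corresponding values were 116 genes and -1.53%, and for MYC+Bmi1 127 genes and -2.26%. Il5ra, Dynap and Aqp8 lay between -7.47% and 2.56% in all 4 groups.

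**Figure D3:**
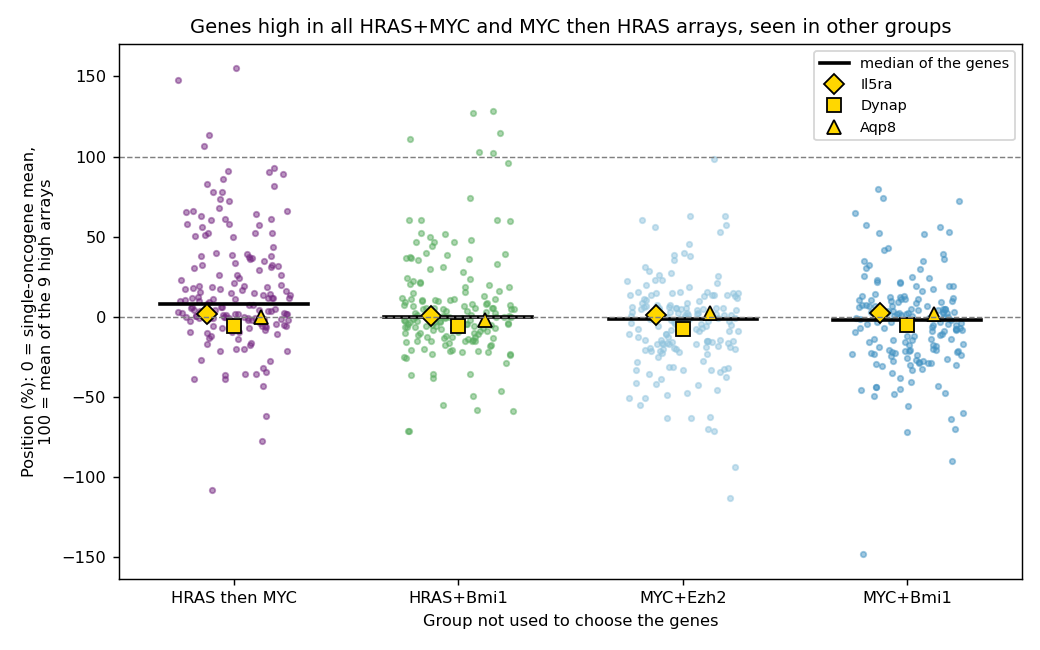
Position (y axis, %) of the 171 genes with a gap above 0 in the 4 groups that had no part in choosing them (x axis), where 0 is the mean of the single-oncogene groups and 100 the mean of the 9 HRAS+MYC and MYC then HRAS arrays; dots are genes, bars medians and yellow symbols Il5ra, Dynap and Aqp8. The 3 genes lie near 0 in every group, while the median of the genes in HRAS then MYC is 7.84%.

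How the 3 genes varied together within the 7 HRAS+MYC arrays is given as a description, since these values chose them. Dynap and Aqp8 had Pearson's r of 0.508 and Spearman's rho of 0.786, and r was 0.531 without the 2 arrays farthest from the median of Dynap. Il5ra had r of -0.364 and rho of -0.179 against Dynap, and r of -0.633 and rho of -0.429 against Aqp8. Without the 2 arrays farthest from the median of Il5ra, r was -0.790 against Dynap and -0.555 against Aqp8. HRAS+MYC replicate 7, the array with the lowest Aqp8 value, weighs on the relation of Dynap and Aqp8, and r was 0.900 without it.

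The partners of the Il5ra chain were looked at next, in a list of 24 genes of interleukin 5 receptor family and signalling, 23 of them measured. Il5ra itself is not on it. In HRAS+MYC against HRAS arrays, 0 of 23 rose and 2 fell, Jak1 (-0.74 ± 0.136, SE, limma adjusted p 0.000165) and Bcl2l1, a survival gene (-0.63 ± 0.233, adjusted p 0.0478), where 11.7% of all genes rose and 13.0% fell. At an unadjusted p under 0.05, 1 was higher and 5 lower. The Bcl2l1 call was lost with arrays centred again on their median (adjusted p 0.0790) and when any of the 12 arrays other than HRAS replicate 1 was left out (adjusted p 0.0538 to 0.118), and 4 genes fell without the 3 arrays that stood apart. In HRAS+MYC against MYC arrays, 9 of 23 rose and 2 fell, where 15.8% of all genes rose and 18.4% fell, and the list's median difference was 0.26 against 0.03 over all genes. The largest rises were those of the adaptor Shc1 (2.33 ± 0.182, limma adjusted p 6.56e-11), Bcl2l1 (1.37 ± 0.222, adjusted p 1.52e-05) and the cytokine gene Csf2 (1.00 ± 0.217, adjusted p 0.000564), and Stat5b fell (-1.68 ± 0.333, adjusted p 0.000204). Shc1 averaged 10.26 ± 0.435 in HRAS+MYC arrays, against 10.28 ± 0.314 in HRAS and 7.93 ± 0.219 in MYC arrays.

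The beta chain with which Il5ra signals passed in none of these comparisons. Csf2rb averaged 5.07 ± 0.268 in HRAS+MYC and 4.96 ± 0.0852 in MYC then HRAS arrays, against 5.07 ± 0.179 in HRAS and 5.07 ± 0.129 in MYC arrays. Its difference was -0.0015 ± 0.126 (SE, limma adjusted p 0.996) for HRAS+MYC against HRAS and -0.00044 ± 0.120 (adjusted p 0.998) against MYC. The ligand gene Il5 averaged 3.56 ± 0.264 in HRAS+MYC arrays, against 3.40 ± 0.235 in HRAS and 3.41 ± 0.233 in MYC arrays, and did not pass either (limma adjusted p 0.387 and 0.366). Both were singled out for their role after their values were seen. In MYC then HRAS against MYC arrays, where 9.83% of all genes rose and 10.6% fell, 4 genes of the list rose and 1 fell, a count of rises that was 8 without the 3 arrays that stood apart and 2 without MYC then HRAS replicate 2. In HRAS then MYC against HRAS arrays, where 6.30% rose and 6.21% fell, 0 rose and 3 fell in limma (1 without HRAS then MYC replicate 2, and 5 without the 3 arrays that stood apart), and 0 were higher at an unadjusted p under 0.05. These comparisons share arrays, since the HRAS+MYC, HRAS and MYC arrays each enter more than 1 of them.

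Most eosinophil markers did not pass beside Il5ra. Of 9 measured, Alox15, a lipoxygenase, rose in HRAS+MYC arrays, by 2.51 ± 0.418 (SE, limma adjusted p 5.36e-05) against HRAS and 2.51 ± 0.397 (adjusted p 1.16e-05) against MYC. Epx, Prg2, Prg3, Siglecf, Ccr3, Ear6, Gata1 and Cebpe did not pass in either comparison. Over all genes, 11.7% rose and 13.0% fell against HRAS, and 15.8% rose and 18.4% fell against MYC. In MYC then HRAS against MYC arrays, 9.83% of all genes rose and 10.6% fell. With arrays centred again on their median, 2 of the 9 passed against HRAS and 4 against MYC. Epx, eosinophil peroxidase, lay at 4.54 to 4.90 in HRAS+MYC arrays, against 4.30 to 4.83 in HRAS and 4.51 to 4.75 in MYC arrays, so its ranges overlap. In MYC then HRAS against MYC arrays Cebpe (0.47 ± 0.149, SE, limma adjusted p 0.0246) and Prg2 (0.43 ± 0.152, adjusted p 0.0435) rose, and neither did without MYC then HRAS replicate 1 or 2, while Alox15 did not pass (1.34 ± 0.583, adjusted p 0.109). The mean log2 value over the 9 markers ran from 4.88 to 5.28 in HRAS+MYC arrays and from 5.06 to 5.11 in MYC then HRAS arrays, against 4.53 to 4.89 in HRAS and 4.68 to 4.83 in MYC arrays. That mean includes Alox15, which averaged 7.66 ± 1.46 (SD) in HRAS+MYC arrays, against 5.15 ± 0.208 in HRAS and 5.15 ± 0.221 in MYC arrays. It therefore does not show the level of the other markers apart from Alox15. The part of eosinophils in the level of Il5ra was not tested. Of 6 B cell markers, the adaptor Blnk rose in HRAS+MYC against MYC arrays (4.27 ± 0.355, limma adjusted p 2.26e-10) and none passed against HRAS, with 1 at an unadjusted p under 0.05. Of 12 leukocyte and macrophage markers, 1 rose against MYC, Cd68 (3.60 ± 0.458, limma adjusted p 3.95e-07), and 1 fell against HRAS, Laptm5 (-2.12 ± 0.657, adjusted p 0.0180), a call lost without HRAS replicate 1 (adjusted p 0.0944) or 2 (adjusted p 0.0901). Ptprc, which encodes CD45, the surface protein of leukocytes, averaged 4.85 ± 0.421 in HRAS+MYC arrays, against 4.67 ± 0.234 in HRAS and 4.50 ± 0.216 in MYC arrays, and did not pass (limma adjusted p 0.419 and 0.0627). In MYC then HRAS against MYC arrays 3 of the 12 rose, Ptprc among them (0.67 ± 0.217, SE, limma adjusted p 0.0283), and 1 did without the 3 arrays that stood apart or without MYC then HRAS replicate 2, where Ptprc no longer passed (adjusted p 0.0735 and 0.360). Ptprc was named for its role after its values were seen.

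**Figure D4:**
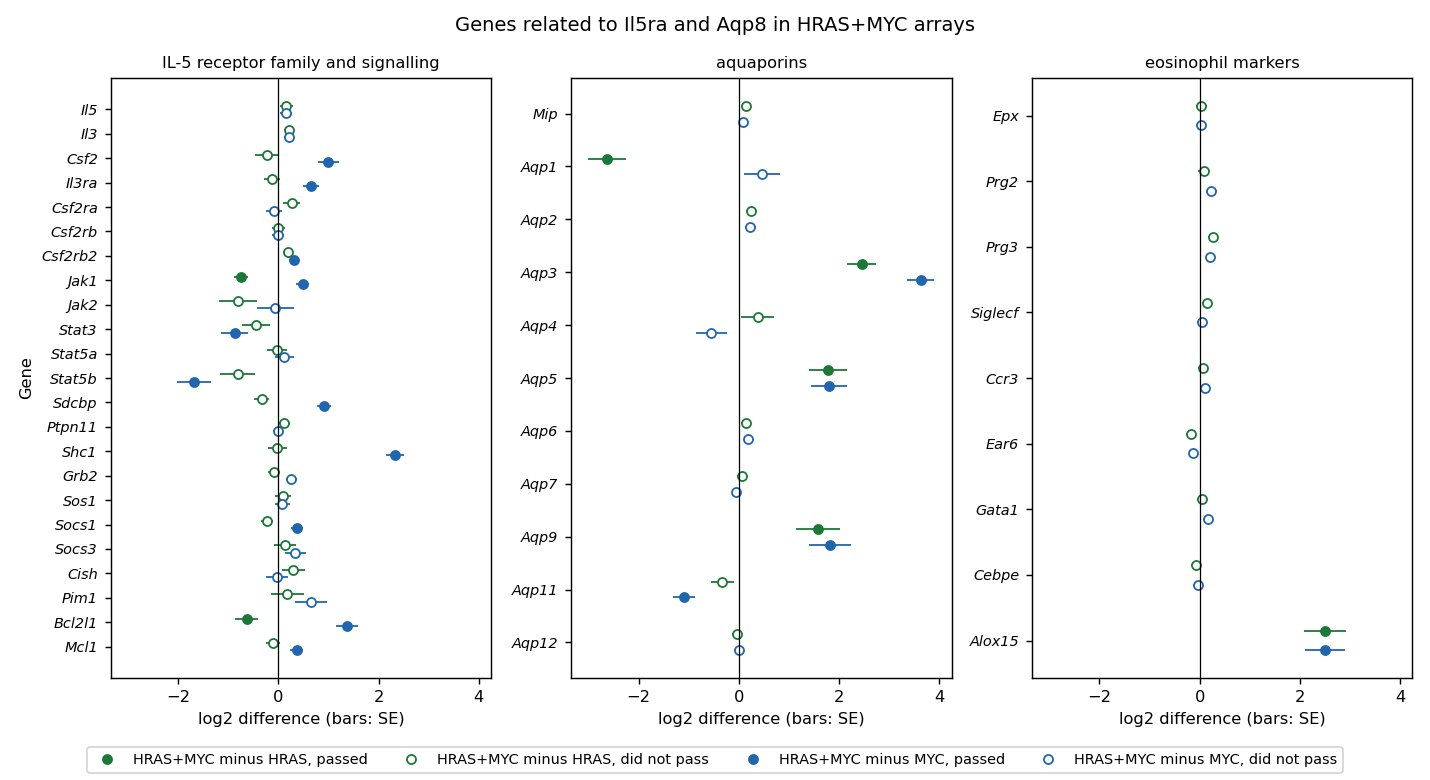
Log2 difference (x axis, bars SE) of HRAS+MYC from HRAS (green) and from MYC (blue) arrays for genes of interleukin 5 receptor family and signalling, the other aquaporins and eosinophil markers (rows); filled points passed at a limma adjusted p under 0.05. Csf2rb lies at 0 in both comparisons, Aqp3, Aqp5 and Aqp9 lie to the right in both, and Alox15 is the 1 eosinophil marker that passed.

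Among the aquaporins, Aqp8 did not stand alone. Of 11 other members of the family, 3 rose in HRAS+MYC against HRAS arrays and the same 3 against MYC arrays, where 11.7% and 15.8% of all genes rose, namely Aqp3, a channel for water and glycerol, Aqp5, known from glands, and Aqp9, which also passes glycerol. Aqp3 averaged 9.25 ± 0.802 in HRAS+MYC and 8.88 ± 0.115 in MYC then HRAS arrays, against 6.80 ± 0.677 in HRAS and 5.62 ± 0.224 in MYC arrays. Its difference in HRAS+MYC arrays was 2.45 ± 0.288 (SE, limma adjusted p 4.70e-07) against HRAS and 3.63 ± 0.274 (adjusted p 3.66e-11) against MYC, and in MYC then HRAS arrays 3.26 ± 0.402 (adjusted p 9.52e-07) against MYC. Aqp5 rose by 1.78 ± 0.376 (limma adjusted p 0.000800) against HRAS and 1.80 ± 0.357 (adjusted p 0.000204) against MYC. Aqp9 rose by 1.58 ± 0.440 (limma adjusted p 0.00854) against HRAS, where a model of only HRAS+MYC and HRAS arrays gave 0.0859, and 1.81 ± 0.418 (adjusted p 0.00109) against MYC, with HRAS+MYC arrays spread from 4.60 to 8.32. Aqp1, a water channel of the choroid plexus, fell against HRAS (-2.63 ± 0.375, limma adjusted p 7.04e-06) and Aqp11 fell against MYC (-1.09 ± 0.219, adjusted p 0.000231), where 2 fell without the 3 arrays that stood apart. The list's median difference was 0.14 against HRAS and 0.19 against MYC, against 0.05 and 0.03 over all genes. In MYC then HRAS against MYC arrays, 2 of the 11 rose and 1 fell, where 9.83% of all genes rose and 10.6% fell. Fewer rose in some alternative runs. Aqp9 averaged 4.89 ± 0.394 in MYC then HRAS arrays, against 4.35 ± 0.140 in MYC arrays. In HRAS then MYC arrays Aqp3 averaged 6.13 ± 0.568, and 0 of the 11 rose against HRAS in limma, with 1 higher at an unadjusted p under 0.05.

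Genes that make or remove hydrogen peroxide, which Aqp8 lets through, were called in both directions. Of 22 measured, 5 rose and 3 fell in HRAS+MYC against HRAS arrays, where 11.7% of all genes rose and 13.0% fell. Against MYC arrays 6 rose and 4 fell, where 15.8% rose and 18.4% fell. The median difference of the list was 0.09 against HRAS and 0.08 against MYC. In HRAS then MYC against HRAS arrays, 4 rose and 1 fell, where 6.30% of all genes rose and 6.21% fell. Without the 3 arrays that stood apart, 6 rose there. In MYC then HRAS against MYC arrays, 4 rose and 2 fell, where 9.83% rose and 10.6% fell, and fewer rose in some alternative runs. Cyba, a subunit of NADPH oxidases, rose by 1.28 ± 0.327 (SE, limma adjusted p 0.00435) against HRAS and 0.96 ± 0.311 (adjusted p 0.0166) against MYC. The oxidase Nox4 fell (-1.90 ± 0.216, limma adjusted p 2.76e-07) against HRAS and rose by 0.71 ± 0.205 (adjusted p 0.00722) against MYC. Glutathione peroxidases moved too, Gpx3 falling against HRAS (-0.74 ± 0.166, limma adjusted p 0.00144) and Gpx1 rising against MYC (0.75 ± 0.141, adjusted p 0.000111).

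Markers of the epithelia in which Aqp8 is known rose in part with it. Of 14 measured gut, pancreas and liver markers, 5 rose and 0 fell in HRAS+MYC against HRAS arrays, and 6 rose and 0 fell against MYC arrays, where 11.7% and 15.8% of all genes rose. Cdx2 rose by 3.88 ± 0.223 (SE, limma adjusted p 7.50e-13) and 3.78 ± 0.212 (adjusted p 7.85e-14), Epcam by 3.53 ± 0.346 (adjusted p 2.20e-08) and 3.51 ± 0.329 (adjusted p 1.92e-09), and Cdh1, the epithelial cadherin, by 2.08 ± 0.238 (adjusted p 2.83e-07) and 2.29 ± 0.226 (adjusted p 4.93e-09). Cdx2 and Epcam also belong to the genes with the largest gaps, so they are not independent of the pattern. Krt20, an intestinal keratin, rose by 3.02 ± 0.760 (limma adjusted p 0.00248) against MYC and differed by -0.33 ± 0.800 (adjusted p 0.816) from HRAS. The list's median difference was 0.20 against HRAS and 0.16 against MYC, against 0.05 and 0.03 over all genes. Without the 3 arrays that stood apart, 4 rose against HRAS and 5 against MYC. Means in HRAS+MYC, HRAS and MYC arrays were 4.49, 4.56 and 4.45 for Vil1, 4.62, 4.59 and 4.70 for Cpa1, and 3.73, 3.82 and 3.80 for Alb. Vil1, Cpa1 and Alb were named after their values were seen. Of 12 squamous epithelium markers, 5 rose against HRAS and 9 against MYC, and the count against MYC was 6 without the 3 arrays that stood apart. The median difference of the squamous list was 0.35 against HRAS and 0.47 against MYC. Means in HRAS+MYC, HRAS and MYC arrays were 6.02, 5.91 and 5.92 for Trp63, 4.34, 4.26 and 4.29 for Ivl, and 4.33, 4.30 and 4.22 for Krt1. Trp63, Ivl and Krt1 were also named after their values were seen. Perp rose by 3.98 ± 0.427 (limma adjusted p 1.01e-07) and 3.77 ± 0.406 (adjusted p 2.43e-08), and Krt6a by 3.17 ± 0.426 (adjusted p 3.05e-06) and 3.10 ± 0.405 (adjusted p 5.91e-07). Perp, like Cdx2 and Epcam, belongs to the genes with the largest gaps, so it is not independent of the pattern.

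The mean levels of both epithelial lists were higher on every HRAS+MYC and MYC then HRAS array than on any HRAS or MYC array. These lists hold Cdx2, Epcam and Perp, which are among the genes with the largest gaps. Such genes follow the same split of arrays, so the separation of the means is a description. The mean log2 value over the gut, pancreas and liver markers ran from 5.58 to 5.92 in HRAS+MYC and from 5.64 to 5.85 in MYC then HRAS arrays, against 4.64 to 5.31 in HRAS and 4.71 to 4.80 in MYC arrays. That over the squamous markers ran from 6.03 to 6.53 in HRAS+MYC and from 5.71 to 6.12 in MYC then HRAS arrays, against 4.86 to 5.26 in HRAS and 4.95 to 5.15 in MYC arrays. In HRAS then MYC arrays the ranges were 4.80 to 4.87 and 5.10 to 5.13. There 0 markers of either list passed in limma against HRAS, where 6.30% of all genes rose and 6.21% fell. At an unadjusted p under 0.05, 2 squamous markers were higher and 1 gut marker lower. In MYC then HRAS against MYC arrays, where 9.83% of all genes rose, 4 of the 14 rose (2 without MYC then HRAS replicate 1) and 5 of the 12 (3 without MYC then HRAS replicate 2). Neural markers moved as well. Of 8 neural stem and glial markers, 3 fell in HRAS+MYC against HRAS arrays, where 13.0% of all genes fell. Against MYC arrays, where 18.4% of all genes fell, 4 of the 8 did (5 without the 3 arrays that stood apart). In limma 0 rose, where 11.7% and 15.8% of all genes did, with 0 higher at an unadjusted p under 0.05. The mean level of the neural stem and glial markers ran from 6.60 to 7.45 in HRAS+MYC and from 7.10 to 8.71 in MYC then HRAS arrays, and from 6.68 to 6.94 in HRAS then MYC arrays, against 7.27 to 9.18 in HRAS and 6.59 to 10.34 in MYC arrays. Of 6 neuronal markers, 1 rose and 5 fell in HRAS+MYC against MYC arrays, where 15.8% of all genes rose and 18.4% fell. None passed in limma against HRAS, with 1 lower at an unadjusted p under 0.05, and 1 rose without the 3 arrays that stood apart. The mean level of the neuronal markers ran from 5.82 to 6.37 in HRAS+MYC and from 5.866 to 5.87 in MYC then HRAS arrays, against 5.36 to 7.79 in HRAS and 7.21 to 9.33 in MYC arrays. The part of these markers in the levels of the 3 genes was not tested.

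For Dynap, genes of the dynactin complex fell in part against HRAS and went both ways against MYC. Of 10 measured subunits, 0 rose and 4 fell in HRAS+MYC against HRAS arrays (Dctn1, Dctn2, Dctn3 and Dctn4), with 0 higher at an unadjusted p under 0.05 and 11.7% of all genes rising and 13.0% falling, and 3 rose (Capza1, Capzb and, named to complete the count, Capza2) and 2 fell (Dctn1 and Dctn4) against MYC arrays. Dctn4 fell against HRAS (-0.61 ± 0.130, SE, limma adjusted p 0.000859) and against MYC (-0.60 ± 0.124, adjusted p 0.000304). Dctn1, the largest subunit, also fell against HRAS (-0.58 ± 0.127, limma adjusted p 0.00111) and against MYC (-0.53 ± 0.120, adjusted p 0.000945). With arrays centred again on their median, Dctn2 (limma adjusted p 0.0858) and Dctn3 (adjusted p 0.0550) no longer passed against HRAS, and the same held for Dctn2 without HRAS replicate 5 (adjusted p 0.119) and for Dctn3 without HRAS replicate 4 (adjusted p 0.101). Of 18 genes of the AKT pathway, 0 rose and 4 fell against HRAS (Pik3ca, Phlpp1, Tsc1 and Tsc2), with 1 higher at an unadjusted p under 0.05, where 11.7% of all genes rose and 13.0% fell. Against MYC 3 rose and 5 fell, where 15.8% of all genes rose and 18.4% fell. The catalytic subunit Pik3ca of phosphoinositide 3-kinase fell (-1.25 ± 0.138, limma adjusted p 1.88e-07) against HRAS, and Pik3cb rose by 1.77 ± 0.165 (adjusted p 1.92e-09) while the regulatory Pik3r1 fell (-1.79 ± 0.270, adjusted p 5.89e-06) against MYC. Akt1 did not pass (-0.08 ± 0.123, limma adjusted p 0.684, against HRAS and 0.08 ± 0.117, adjusted p 0.649, against MYC), but rose where HRAS was added to MYC cells (0.76 ± 0.172 against MYC, adjusted p 0.00187, and 0.0564 without MYC then HRAS replicate 2), and was singled out after its values were seen. Tsc1 lost its call against HRAS with arrays centred again (limma adjusted p 0.0917) and without HRAS replicate 3 (0.0914) or 5 (0.0989), and without HRAS+MYC replicate 3, 6 or 7 (0.0535 to 0.0615).

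Output genes of the RAS-MAPK pathway rose in most cases against MYC arrays, and in few against HRAS arrays. Of 19 measured, 15 rose and 0 fell in HRAS+MYC against MYC arrays, with a median of 2.72, where 15.8% of all genes rose and 18.4% fell. In MYC then HRAS against MYC arrays, 14 rose and 0 fell, where 9.83% of all genes rose and 10.6% fell. Without the 3 arrays that stood apart, 14 rose and 1 fell in each of these 2 comparisons. Against HRAS arrays, 4 rose and 2 fell in HRAS+MYC, with a median of -0.15, where 11.7% of all genes rose and 13.0% fell. The rises were 1 without HRAS replicate 3 and 2 without HRAS replicate 1 or 4. Without the 3 arrays that stood apart, 3 rose and 3 fell. In HRAS then MYC against HRAS arrays, 1 rose and 5 fell, where 6.30% of all genes rose and 6.21% fell. Without the 3 arrays that stood apart, 0 rose and 6 fell there. The 5 included Hbegf, a ligand of the EGF receptor (-2.61 ± 0.396, SE, limma adjusted p 6.44e-05), the receptor Epha2 (-2.02 ± 0.309, adjusted p 7.20e-05), Ereg (-1.75 ± 0.323, adjusted p 0.000565) and the AP-1 subunit Fosl1 (-1.45 ± 0.233, adjusted p 0.000137). Without HRAS then MYC replicate 2 the falls were 2, and Ereg (limma adjusted p 0.161) and Fosl1 (adjusted p 0.0730) no longer passed. Ereg, which is in both this list and the gap list, stood at 6.51 ± 1.12 in HRAS then MYC arrays, against 8.27 ± 0.268 in HRAS arrays.

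The chromosomal neighbours of the 3 genes were looked at as well. For each of them the 3 nearest measured genes on either side were taken in RefSeq order, and of these 18 genes 1, Trnt1, is among the 171 with a gap above 0. Next to Il5ra, Trnt1, which adds the CCA end to transfer RNAs, rose in HRAS+MYC arrays by 1.82 ± 0.166 (SE, limma adjusted p 5.88e-09) against HRAS and 0.78 ± 0.157 (adjusted p 0.000247) against MYC. Crbn, a substrate receptor of a ubiquitin ligase, fell against HRAS (-0.59 ± 0.185, limma adjusted p 0.0197) and against MYC (-1.09 ± 0.176, adjusted p 1.50e-05), and Cntn4 on the other side did not pass in either comparison (adjusted p 0.711 and 0.994). Around Dynap, Rab27b, a small GTPase of secretion, rose by 0.98 ± 0.141 (limma adjusted p 2.67e-06) against MYC and did not pass against HRAS (-0.12 ± 0.149, adjusted p 0.625). The transcription factor Tcf4 fell against HRAS (-0.92 ± 0.194, limma adjusted p 0.000762) and against MYC (-1.69 ± 0.184, adjusted p 2.94e-08). Near Aqp8, Arhgap17 rose by 0.42 ± 0.113 (limma adjusted p 0.00616) against HRAS and 0.98 ± 0.107 (adjusted p 3.05e-08) against MYC. Lcmt1, next to Aqp8, differed by 0.08 ± 0.113 (limma adjusted p 0.658) from HRAS and by -0.61 ± 0.108 (adjusted p 5.43e-05) from MYC. Over the 6 neighbours of each gene, HRAS+MYC against HRAS gave 1 rise and 1 fall around Il5ra, 0 and 2 around Dynap, and 1 and 0 around Aqp8, where 11.7% of all genes rose and 13.0% fell. Against MYC the counts were 1 rise and 3 falls around Il5ra, 2 and 2 around Dynap, and 1 and 2 around Aqp8, where 15.8% of all genes rose and 18.4% fell.

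Of the 171 genes with a gap above 0, 128 have a promoter window in the RefSeq table. TGAGTCA, found in the window of Il5ra, occurs in 11 of them (8.59%, against 5.17% of all windows), CACGTG, found in that of Aqp8, in 12 (9.38%, against 7.24%) and CATGTG in 13 (10.2%, against 14.1%). These shares are descriptions of the windows, and no test was made of them.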

How the data were processed

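RNA from neurosphere cultures was measured on 32 arrays, and the labels do not say whether each array came from a separate tumour. Per the submitters' processing notes, the deposited log2 values come from the authors' use of RMA with the software Affymetrix Expression Console 1.0. The log2 scale was read from the values (1.44 to 14.5, array medians 5.59 to 5.79). RMA equalises the arrays' distributions, so a change in total RNA is lost, and changes of dim probe sets near the background come out too small. GEO's platform table names 1 gene for 21789 of the 35557 probe sets and several for 1621, and it does not list 12147. The probe set with the highest mean was taken per gene (999 genes had several), which left 19938 genes, 99.6% of them found in RefSeq (GRCm38.p6), which gave chromosomes and gene order. Highest correlation between 2 arrays was 0.994, and no 2 arrays held identical values. The files used here give no detection values or batches.

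One model with a mean per group was fitted across all genes over the 32 arrays with limma 3.58.1 in R 4.3.3 (lmFit, eBayes, Benjamini-Hochberg over 19938 genes). The fit was tested on simulated data. Replicate numbers are shared between groups. Same-numbered arrays of MYC+Ezh2 and MYC+Bmi1 deviated together (r of 0.219 to 0.433 over 3 pairs), so the numbers were taken to pair these groups, and elsewhere r was between -0.181 and 0.122. The members and lists were chosen with earlier results of these data known, and 170 of 183 list genes were measured. Genes named are the 3, the 5 most alike to each by Pearson's r, the 10 with the largest gap, 3 neighbours on each side, and up to 4 passing genes per list. Unnamed gene models, olfactory and vomeronasal receptors, small RNAs and genes on X and Y were left out of likeness and gap naming. Alternatives were another centring, a filter, robust variances, a replicate block, the mean of a gene's probe sets, fits of 2 groups, and leaving out arrays.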

Additional observations from a re-analysis of the deposited data

Results flagged for a closer look

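Among the 13 genes named for their gap or likeness, 52 sets of 1 gene in 1 group of 5 to 7 arrays were tested for an array that stands far from the rest of its group, and 3 were found. Chance alone would flag about 1 in 20 sets, but HRAS+MYC, HRAS and MYC arrays also helped to choose these 13 genes. That rate may therefore not hold here, and no conclusion is drawn from the count of flags. None of the 3 flags concerns Il5ra, Dynap or Aqp8, which were chosen for their values and were not tested in this way. Krt19 was 6.30 on HRAS replicate 2, against 5.36 to 5.58 on the other HRAS arrays. Cdh17 was 3.96 on MYC replicate 2, against 4.27 to 4.39 on the other MYC arrays. Gdpd3 was 8.99 on HRAS+MYC replicate 1, against 6.64 to 7.01 on the other HRAS+MYC arrays.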

How the results depend on the processing

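Il5ra, Dynap and Aqp8 passed no test under any alternative run. Their tested differences kept their sign in 135 alternative values and changed it in 12. With arrays centred again on their median, Dynap turned to 0.23 in HRAS then MYC against HRAS+Bmi1 and Aqp8 to 0.041 in HRAS then MYC against MYC+Ezh2. With 1 array left out, differences ranged from -0.11 to 0.28 (Aqp8) and -0.41 to 0.40 (Dynap) in HRAS then MYC against HRAS+Bmi1, -0.31 to 0.085 (Aqp8) and -0.11 to 0.33 (Dynap) in HRAS then MYC against MYC+Ezh2, -0.42 to 0.39 (Dynap) in HRAS+Bmi1 against MYC+Bmi1, and -0.057 to 0.094 (Aqp8) in MYC+Ezh2 against MYC+Bmi1. The correlation of Dynap and Aqp8 within HRAS+MYC ranged from 0.297 to 0.900, highest without replicate 7. Counts of genes that passed were, with 1 array left out, 548 to 1034 in HRAS then MYC against HRAS+Bmi1 (1997 with all arrays), 1000 to 2392 in HRAS then MYC against MYC+Ezh2 (2431), 1175 to 2468 in HRAS+Bmi1 against MYC+Bmi1 (2742), 1 to 11 in MYC+Ezh2 against MYC+Bmi1 (1), 1900 to 4286 in MYC then HRAS against MYC (4074) and 544 to 2667 in HRAS then MYC against HRAS (2495). Fits of 2 groups alone gave 4945 for HRAS then MYC against HRAS+Bmi1, 3 for MYC+Ezh2 against MYC+Bmi1, 2367 for MYC then HRAS against MYC and 983 for HRAS then MYC against HRAS, and the cause was not tested. Before centring again, the differences of all genes stood lower by a shift of -0.23 in HRAS then MYC against HRAS+Bmi1. After it, 3716 genes passed and the share of passing genes that were higher was 79.2%, against 46.8% before. That share went to 75.5% (56.0%) in HRAS then MYC against MYC+Ezh2, 60.3% (47.2%) in HRAS+MYC against HRAS, 63.0% (46.1%) in HRAS+MYC against MYC, 60.1% (48.1%) in MYC then HRAS against MYC and 73.2% (50.3%) in HRAS then MYC against HRAS. The replicate block gave 1948 in HRAS then MYC against HRAS+Bmi1, 4855 in HRAS+MYC against HRAS, 6572 in HRAS+MYC against MYC and 3660 in MYC then HRAS against MYC. In the paired groups MYC+Ezh2 and MYC+Bmi1, a block for these groups alone, chosen after seeing the data, gave 2 calls. The block changed no call of the 3 genes. Of the calls of list genes, 2303 alternative values still passed, 220 no longer did and 0 changed sign. No detection values were used here, so how far the low arrays' values rest on background cannot be told.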
